A study of Mus musculus with 8 samples.

Results

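The 10 genes described here either respond to low oxygen or carry out glycolysis, and they were chosen by name: Egln3, Slc2a1, Hk2, Pgk1, Eno1, Ldha, Pdk1, Bnip3, P4ha1 and Vegfa. The choice was made with earlier results of these data known. They are 10 of the 55401 genes in the count table, and all 10 were among the 17125 genes with enough counts to be tested. The cells were R1, a line of mouse embryonic stem cells (ESCs), and the study addressed what the loss of the zinc finger protein Zfp462 does to self-renewal and to differentiation. Poly(A) RNA was sequenced from 4 groups of 2 libraries each. Control ESCs (genotype given as WT) and ESCs of stable Zfp462 knockout lines were grown undifferentiated in serum with leukaemia inhibitory factor (LIF), on gelatin. Control and knockout embryoid bodies (EBs), aggregates in which ESCs differentiate, were taken after 3 days of suspension culture in Petri dishes. Neither the number of knockout clones, nor the position of the lesion in Zfp462, nor the oxygen tension of the cultures is stated in the sources at hand. The labels leave unstated if a group's libraries stem from separate cultures, so the p-values reflect the spread among these particular samples, which may be only technical.

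Cells sense oxygen through prolyl hydroxylases of the EGLN family, which use oxygen to mark the alpha subunits of the hypoxia-inducible factors (HIFs) for destruction. When oxygen is low the alpha subunits persist, pair with ARNT and bind DNA at the core letters ACGTG or GCGTG, and genes for glucose uptake, glycolysis, vessel growth, mitophagy and collagen hydroxylation are switched on. Pluripotent stem cells are known for a high rate of glycolysis even where oxygen is plentiful.

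Because the same DNA letters are the known contact of HIF, the 250 bases upstream of the RefSeq start of each gene were searched for ACGTG and GCGTG on both strands, at 1 start for each gene (the RefSeq start nearest the 5′ end of the gene in the count table), with overlapping matches counted as 1 stretch (the palindrome CACGTG counts once). Of the 10 genes, 9 held at least 1 stretch, against 38.6% of all 32851 RefSeq windows of that length. The windows of the 10 genes were also rich in G and C, with a median of 65.2% against 52.4% for all windows, and these core letters hold more G and C than A and T. The 5 windows below are those of the 3 genes with the largest knockout effects in ESCs described below (P4ha1, Egln3 and Bnip3), of Ldha, which holds the palindrome more than once, and of Vegfa, the only member with no stretch in the window searched. They are written 5′ to 3′ on the gene's strand with the core stretches in capitals, from RefSeq on GRCm38.p6 (mm10). Egln3 lies at chr12:54203875-54204124 on the minus strand, Bnip3 at chr7:138909507-138909756 on the minus strand, P4ha1 at chr10:59323046-59323295 on the plus strand, Ldha at chr7:46845554-46845803 on the plus strand and Vegfa at chr17:46032378-46032627 on the minus strand.
Egln3: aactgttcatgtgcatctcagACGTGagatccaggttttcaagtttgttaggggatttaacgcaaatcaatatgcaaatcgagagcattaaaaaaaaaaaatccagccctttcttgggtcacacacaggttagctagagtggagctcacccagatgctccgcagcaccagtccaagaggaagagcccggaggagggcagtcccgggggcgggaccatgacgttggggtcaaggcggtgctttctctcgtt
Bnip3: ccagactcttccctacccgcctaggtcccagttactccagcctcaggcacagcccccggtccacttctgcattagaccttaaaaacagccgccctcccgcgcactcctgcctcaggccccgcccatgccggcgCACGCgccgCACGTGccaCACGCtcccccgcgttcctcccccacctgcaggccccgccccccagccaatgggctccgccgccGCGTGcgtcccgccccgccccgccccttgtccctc
P4ha1: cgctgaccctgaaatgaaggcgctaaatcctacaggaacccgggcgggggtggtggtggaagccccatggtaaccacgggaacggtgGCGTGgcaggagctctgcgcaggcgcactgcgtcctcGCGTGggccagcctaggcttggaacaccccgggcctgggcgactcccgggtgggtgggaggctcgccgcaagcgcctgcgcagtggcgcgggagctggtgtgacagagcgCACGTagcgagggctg
Ldha: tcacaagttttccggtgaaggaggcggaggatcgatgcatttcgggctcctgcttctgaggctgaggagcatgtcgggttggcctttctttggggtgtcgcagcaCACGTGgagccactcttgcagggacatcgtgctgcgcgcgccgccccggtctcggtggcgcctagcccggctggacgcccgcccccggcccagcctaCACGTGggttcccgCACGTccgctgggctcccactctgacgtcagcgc
Vegfa: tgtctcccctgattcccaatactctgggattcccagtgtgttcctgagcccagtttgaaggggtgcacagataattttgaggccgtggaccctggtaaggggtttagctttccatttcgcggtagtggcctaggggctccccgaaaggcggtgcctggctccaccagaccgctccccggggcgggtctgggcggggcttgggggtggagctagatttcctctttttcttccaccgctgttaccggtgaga
Egln3 held 1 stretch, 229 bases upstream of the start, and Bnip3 held 4, the nearest 35 bases upstream. P4ha1 held 3 stretches and Ldha held 3, of which 2 are palindromes; 4.65% of all windows hold 3 or more. The Ldha window lies 4329 bases from the 5′ end of the gene as the count table draws it, between exons of the annotation. Of the members not shown, Hk2, Pgk1 and Slc2a1 held 2 stretches each and Pdk1 and Eno1 held 1 each. A stretch is a match of letters and not a binding site, and the absence of one from the Vegfa window says only that the letters are not in those 250 bases. RefSeq lists further starts for 4 members (Vegfa, Ldha, Pdk1 and Eno1): the window of the other Vegfa start, 7206 bases from the 5′ end of the gene, held 2 stretches, and that of the other Pdk1 start held none. The windows of the further Eno1 starts, 476 and 503 bases from the 5′ end, held 2 stretches each, and that of the other Ldha start held 1. The counts of stretches thus depend on the start used.

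The labels were checked on Zfp462 itself. Levels are given throughout as CPM (counts scaled to a common library size, adjusted for composition). Zfp462 read 183.2 and 196.9 CPM in control against 104.0 and 106.6 CPM in knockout ESCs, and 153.5 and 130.3 CPM in control against 102.0 and 102.5 CPM in knockout EBs. It was lower in the knockout in both states (log2 change -0.85 ± 0.10 and -0.47 ± 0.10, SE, with an adjusted p in EBs of 0.0207), although in EBs the test was not passed once control replicate 1 (0.212) or either knockout library (0.159 and 0.116) was left out, and counts outside the lesion do not show how much protein is left. Library totals lay between 12119763 and 16228426 counts. The replicates of the knockout ESCs stood apart from each other: their difference followed the GC content of the genes (Pearson r = 0.467 across genes, which are not independent replicates), and r lay between -0.032 and -0.002 in the other groups. Against the mean of the other 3 groups, r with GC content was -0.317 for replicate 2 and 0.032 for replicate 1, and from -0.099 to 0.153 for the other 6 libraries. Replicate 1 of the knockout EBs held 2599 CPM of 22 adult liver genes against 65.0 to 114.7 CPM in the other 7 libraries. The general pluripotency markers fixed for the cells were all detected in every library. Of 24 extraembryonic endoderm markers, 22 were higher in knockout ESCs and 23 in knockout EBs, where 8.3% and 4.75% of all genes were. None of these markers was at 0 in any library. Their summed level was 5025 to 5236 CPM in control ESCs, 17120 to 20040 CPM in knockout ESCs, 5919 to 6329 CPM in control EBs and 11430 to 12380 CPM in knockout EBs. In bulk RNA, fewer cells of a type and less RNA per cell cannot be told apart.

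In undifferentiated ESCs every one of the 10 genes differed between knockout and control: 8 were lower in the knockout and 2, P4ha1 and Vegfa, were higher. Of all genes tested, 14.5% were called in this comparison at an adjusted p below 0.05 (8.3% higher and 6.2% lower). In an edgeR fit to the 2 ESC groups alone, Pgk1 and Vegfa did not pass (adjusted p = 0.0636 and 0.0726). That fit called 8.4% of all genes. For all 10 the libraries of the 2 genotypes did not overlap, as was so for 25.1% of genes tested in the higher direction and 27.5% in the lower. The median log2 change of the 10 was -0.55, beside -0.03 over all genes tested. The 10 genes and the lists below were chosen with earlier results of these data known. Their counts beside those of all genes are therefore a description and not independent support. Together the 10 genes took 0.608% and 0.611% of the counts in control ESCs, and 0.456% and 0.473% in knockout ESCs. In day 3 EBs only 4 of the 10 were called, with Eno1 and Ldha lower and P4ha1 and Vegfa higher, where 6.8% of all genes were called (4.75% higher and 2.04% lower). Libraries did not overlap for 4 of the 10 in the lower direction (29.4% of all genes) and for 2 in the higher (30% of all genes). The median over the 10 was then -0.07, beside 0.00 over all genes. With the trend on GC content removed, 5 were lower and 2 higher in EBs, where 20.6% of all genes were then called and the median of all genes moved to -0.10.

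**Figure D1:**
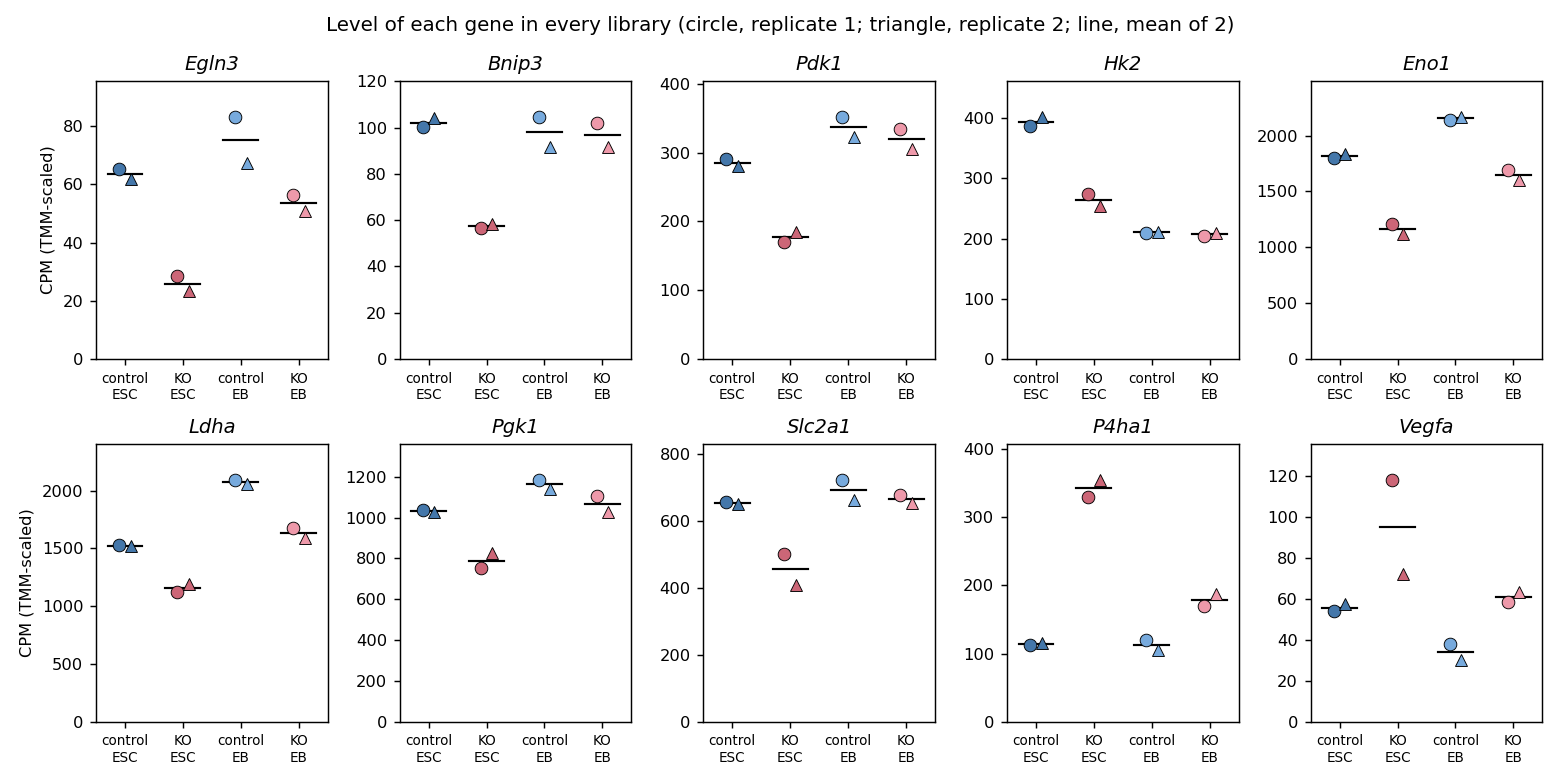
CPM of each of the 10 genes (vertical axes, each from 0) in the 4 groups (horizontal axis); circles are replicate 1, triangles replicate 2, and lines the mean of 2 libraries. Both knockout ESC libraries lie below both control ESC libraries for 8 genes and above them for P4ha1 and Vegfa.

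Egln3, the one oxygen-sensing prolyl hydroxylase among the 10, lies on chromosome 12 (54178981 to 54203860, minus strand). Its level was 65.1 and 61.7 CPM (control ESCs), 28.4 and 23.4 CPM (knockout ESCs), 83.0 and 67.4 CPM (control EBs) and 56.3 and 50.7 CPM (knockout EBs). The knockout ESCs were the lowest of the 4 groups and no library of one group overlapped another. Knockout ESCs held 40.9% of the control level, a log2 change of -1.29 ± 0.14 (SE; adjusted p = 0.000206, edgeR quasi-likelihood test), the largest decrease among the 10. In EBs the change was -0.49 ± 0.13 and missed the threshold (adjusted p = 0.0536), although both knockout libraries lay below both controls; it passed in 8 of 15 alternative analyses. From ESC to EB the gene rose in knockout cells (1.05 ± 0.14, adjusted p = 0.000892), and in control cells the value was 0.25 ± 0.13 (adjusted p = 0.225). The knockout effect in EBs minus that in ESCs was 0.80 ± 0.19 and did not pass (adjusted p = 0.0880).

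Of 9 further genes of the oxygen-sensing system (HIF subunits, the other hydroxylases and VHL), 1 was higher, 2 were lower and 6 did not pass in knockout ESCs, with a median of -0.04, where 8.3% of all genes were higher and 6.2% lower. None passed in EBs with edgeR or DESeq2 (1 of 9 at an unadjusted p below 0.05), where 6.8% of all genes did. In ESCs, 2 were higher and 5 lower without knockout ESC replicate 1 (25.9% of all genes called) and 2 were higher and 1 lower without replicate 2 (19.7%), and in EBs 1 was lower without either (17.1% each time). Hif1a, the best-known HIF alpha subunit, stood between 120.2 and 151.3 CPM in all 8 libraries, with overlapping genotypes in ESCs (log2 change 0.08 ± 0.11, adjusted p = 0.683). It was called higher in ESCs without knockout replicate 1 (0.22, adjusted p = 0.0364), and lower in EBs with the GC trend removed (-0.26, adjusted p = 0.0226). Epas1, which encodes a related alpha subunit, rose in knockout ESCs from 115.3 and 124.8 CPM to 185.6 and 164.1 CPM (0.54 ± 0.10, adjusted p = 0.00384; 0.0817 without control replicate 1). In EBs Epas1 was 133.9 and 127.8 CPM in control and 142.5 and 140.2 CPM in knockout (0.11 ± 0.10, adjusted p = 0.560). Arnt2, a partner subunit, fell in knockout ESCs (-0.91 ± 0.23, adjusted p = 0.0247), a call lost without either control ESC library (0.166 and 0.114) or without knockout replicate 2 (0.0667). The hydroxylases Egln1 and Egln2 did not pass in ESCs (0.32 ± 0.23 and -0.04 ± 0.20) or in EBs (0.02 ± 0.23 and -0.00 ± 0.20), and in knockout ESCs their replicates lay far apart (66.5 and 34.8 CPM for Egln1). Without knockout ESC replicate 2 Egln1 was called higher (0.71, adjusted p = 0.000788; -0.23 without replicate 1), and without replicate 1 Egln2 was called lower (-0.46, adjusted p = 0.0266; 0.28 without replicate 2). Per length, Egln3 was the most abundant of the 3 hydroxylases in control ESCs, at 23.8 RPKM (CPM divided by exon length in kilobases) against 11.3 for Egln1 and 12.6 for Egln2.

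Glucose uptake and the steps of glycolysis were represented by 5 genes, and all 5 fell in knockout ESCs. Slc2a1, which encodes the glucose transporter GLUT1 (chromosome 4, 119108711 to 119137983, plus strand), read 655.5 and 650.9 CPM in control and 500.8 and 408.5 CPM in knockout ESCs. In EBs it stood at 721.1 and 660.1 CPM in control and 676.5 and 653.0 CPM in knockout. Knockout ESCs were thus the one low group, and the other 3 groups lay between 650.9 and 721.1 CPM. The log2 change was -0.52 ± 0.10 in ESCs (adjusted p = 0.00532) and -0.06 ± 0.10 in EBs (approximate 95% interval -0.25 to 0.14, adjusted p = 0.801).

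Hk2, hexokinase 2, the enzyme that traps glucose as glucose 6-phosphate (chromosome 6, 82725025 to 82774454, minus strand), had another pattern. It stood at 386.9 and 401.2 CPM (control ESCs), 273.1 and 253.7 CPM (knockout ESCs), 209.4 and 211.0 CPM (control EBs) and 204.4 and 209.6 CPM (knockout EBs). It was highest in control ESCs and lower in both EB groups than in either ESC group, with the 2 EB groups overlapping. The knockout effect was -0.58 ± 0.08 in ESCs (adjusted p = 0.000872) and -0.02 ± 0.08 in EBs (interval -0.18 to 0.14, adjusted p = 0.912). From ESC to EB it fell by 0.91 ± 0.08 on the log2 scale in control cells (adjusted p = 4.55e-05) and by 0.35 ± 0.08 in knockout cells (adjusted p = 0.0170).

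Pgk1, phosphoglycerate kinase, an ATP-yielding step (chromosome X, 106187100 to 106203699, plus strand), stood at 1037 and 1029 CPM (control ESCs), 752.5 and 826.4 CPM (knockout ESCs), 1185 and 1141 CPM (control EBs) and 1108 and 1030.1 CPM (knockout EBs). Knockout ESCs were again lowest, and knockout EBs overlapped control ESCs and lay below control EBs. The log2 change was -0.39 ± 0.07 in ESCs (adjusted p = 0.00571) and -0.12 ± 0.07 in EBs (interval -0.26 to 0.02, adjusted p = 0.390). Without either control ESC library the ESC calls of Pgk1 (adjusted p = 0.0660 and 0.0671) and of Slc2a1 (0.0670 and 0.0699) were lost, at log2 changes of -0.39 to -0.40 and -0.52 to -0.53.

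Eno1, enolase 1 (chromosome 4, 150236721 to 150248879, plus strand), and Ldha, which turns pyruvate into lactate (chromosome 7, 46841475 to 46855627, plus strand), were the members that fell in both states. Eno1 stood at 1802 and 1835 CPM (control ESCs), 1210.2 and 1117 CPM (knockout ESCs), 2143 and 2164 CPM (control EBs) and 1691 and 1599.7 CPM (knockout EBs). Ldha stood at 1527 and 1522 CPM (control ESCs), 1125 and 1189 CPM (knockout ESCs), 2092 and 2059 CPM (control EBs) and 1679 and 1593 CPM (knockout EBs). For both genes control EBs were highest and knockout ESCs lowest, with no overlap between groups. Eno1 changed by -0.64 ± 0.07 in ESCs (adjusted p = 0.000150) and by -0.39 ± 0.07 in EBs (adjusted p = 0.00618). Ldha changed by -0.40 ± 0.06 in ESCs (adjusted p = 0.00192) and by -0.34 ± 0.06 in EBs (adjusted p = 0.00932). With 1 library left out, the EB call of Ldha was lost whichever of the 4 EB libraries it was (adjusted p from 0.0641 to 0.119), and that of Eno1 was lost without either control or without knockout replicate 2 (0.0648 to 0.0810). From ESC to EB both rose in control cells (Eno1 0.24 ± 0.06, Ldha 0.45 ± 0.06) and in knockout cells (0.50 ± 0.07 and 0.50 ± 0.06). Eno1 has a near-identical copy, Eno1b, which held 21.4% to 25.1% of their joint counts in the 8 libraries, so its own level is uncertain. Summed counts of Eno1 and Eno1b gave -0.38 in EBs (adjusted p = 0.00469). The pseudogene Ldha-ps2 held 0.727% to 0.912% of the Ldha counts and Pgk1-rs7 1.29% to 1.67% of the Pgk1 counts.

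Of 14 other glycolytic enzymes, 6 fell, none rose and 8 did not pass in knockout ESCs, with a median of -0.30 beside -0.03 over all genes, of which 8.3% rose and 6.2% fell. Ldhb, the other lactate dehydrogenase subunit, fell from 174.6 and 185.8 CPM to 108.3 and 93.7 CPM (-0.84 ± 0.10, adjusted p = 0.000339). Pkm, pyruvate kinase, fell from 3442 and 3582 CPM to 2712 and 2415 CPM (-0.45 ± 0.06, adjusted p = 0.000967). At an unadjusted p below 0.05 (edgeR), 4 of the 14 passed in knockout EBs, and a gene that did not pass is not shown to be unchanged. After adjustment 1 of the 14 rose in knockout EBs, none fell and 13 did not pass (median -0.12). Over all genes 4.75% rose and 2.04% fell. The 1 was Pfkp, the platelet-type phosphofructokinase, at 436.6 and 375.9 CPM in control EBs and 607.0 and 585.3 CPM in knockout EBs (0.55 ± 0.08, adjusted p = 0.00386; 0.0512 without control replicate 2). Leaving out a knockout ESC library alters the genes tested, the size factors and the shared spread, but none of the EB libraries compared. More of the 14 then passed in EBs, some higher and some lower, as did more of all genes. The median of the 14 in EBs was then -0.11 without replicate 1 and -0.12 without replicate 2. In control differentiation 6 of the 14 rose and 2, Pfkp and Ldhb, fell, where 8.6% and 9.63% of all genes did. Per length, Hk2 stood at 66.0 RPKM in control ESCs against 7.32 for Hk1, and Ldha at 461 RPKM against 115 for Ldhb. General pluripotency markers summed to 5023 and 5102 CPM in control and 3881 and 3771 CPM in knockout ESCs, the same direction as the called enzymes there. In control EBs these markers summed to 3679 and 3513 CPM, below control ESCs, while 6 of the 14 enzymes rose and 2 fell. The part of the pluripotency and endoderm markers in the result was not tested. Proliferation markers summed to between 4064 and 4478 CPM in all 8 libraries.

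Among 6 other glucose and lactate transporters, 1 rose and 1 fell in knockout ESCs (8.3% and 6.2% of all genes), and without knockout ESC replicate 1, 1 rose and 3 fell (25.9% called). Slc16a1, which encodes the monocarboxylate transporter MCT1, rose (0.59 ± 0.09, adjusted p = 0.00179), and Slc16a3, which encodes MCT4, fell from 208.4 and 219.7 CPM to 158.6 and 98.2 CPM (-0.74 ± 0.17, adjusted p = 0.0169). Slc2a3, which encodes GLUT3, was per length somewhat above Slc2a1 in control ESCs (236 against 186 RPKM). It read 1714 and 1703 CPM in control and 1764 and 1772 CPM in knockout ESCs (0.05 ± 0.07, adjusted p = 0.694). In EBs Slc2a3 rose from 1268 and 1133 CPM to 1464 and 1489 CPM (0.30 ± 0.07, adjusted p = 0.0276). This call was the 1 among the 6 transporters, where 4.75% of all genes rose. Leaving out any single EB library ended this call (adjusted p from 0.0596 to 0.182), as did removal of the GC trend (log2 change 0.12, adjusted p = 0.227). The ESC call of Slc16a3 was lost without either control library (0.111 and 0.166), and that of Slc16a1 without control replicate 2 (0.0565).

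**Figure D2:**
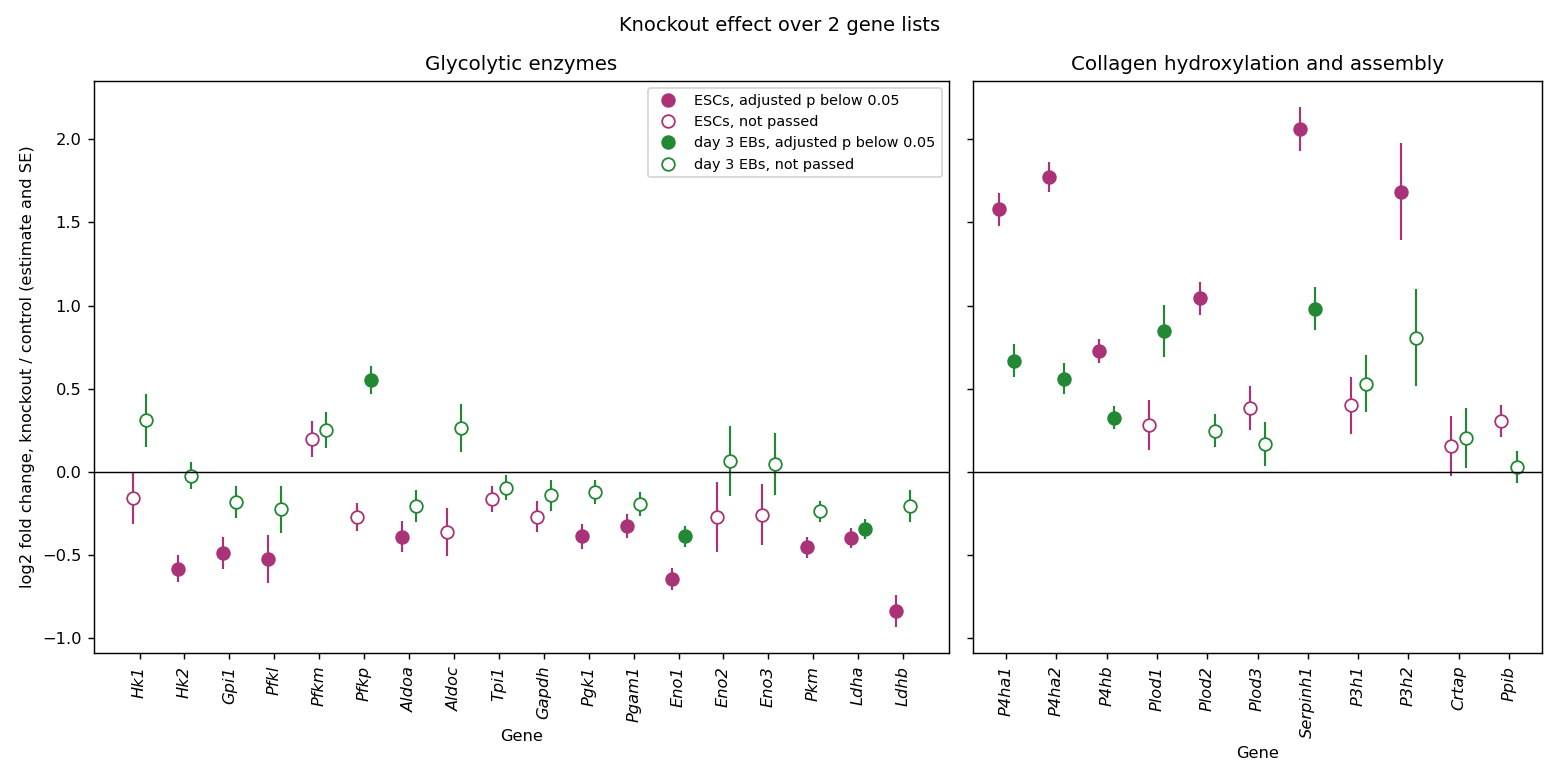
Log2 change of knockout against control (vertical axis, with the SE as bars) of each glycolytic enzyme and each collagen-processing gene (horizontal axis), in ESCs (purple) and day 3 EBs (green); filled points had an adjusted p below 0.05. In ESCs every called glycolytic enzyme lies below 0 and every called collagen gene above 0.

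Pdk1, a kinase that inactivates pyruvate dehydrogenase and so keeps pyruvate from being turned into acetyl-CoA (chromosome 2, 71873224 to 71903858, plus strand), stood at 290.8 and 280.1 CPM (control ESCs), 170.2 and 184.8 CPM (knockout ESCs), 351.3 and 322.6 CPM (control EBs) and 333.9 and 304.7 CPM (knockout EBs). Knockout ESCs were lowest and the 2 EB groups overlapped. The log2 change was -0.69 ± 0.09 in ESCs (adjusted p = 0.000661) and -0.08 ± 0.09 in EBs (interval -0.25 to 0.10, adjusted p = 0.678). None of 10 other genes of pyruvate dehydrogenase and its kinases passed in knockout ESCs with edgeR or DESeq2 (4 at an unadjusted p below 0.05), where 14.5% of all genes did. Without knockout ESC replicate 2, 3 of the 10 fell in ESCs (19.7% of all genes called), and without replicate 1, 1 rose and 1 fell (25.9%). In EBs 1 of the 10 passed with all libraries, where 6.8% of all genes did. It was Pdk4, at 6.17 and 4.47 CPM in control and 11.2 and 12.7 CPM in knockout (1.16 ± 0.25, adjusted p = 0.0217). The Pdk4 call was lost without any 1 of the 4 EB libraries (0.0652 to 0.153).

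Bnip3, an outer mitochondrial membrane protein that recruits mitochondria for mitophagy (chromosome 7, 138890836 to 138909519, minus strand), stood at 100.2 and 104.1 CPM (control ESCs), 56.4 and 58.5 CPM (knockout ESCs), 104.4 and 91.6 CPM (control EBs) and 101.8 and 91.8 CPM (knockout EBs). The knockout ESCs held 56.3% of the control level and the other 3 groups overlapped. The log2 change was -0.83 ± 0.10 in ESCs (adjusted p = 0.000488) and -0.02 ± 0.10 in EBs (interval -0.22 to 0.18, adjusted p = 0.944). Of 7 other mitophagy receptors and partners, 1 rose and 1 fell in knockout ESCs (8.3% and 6.2% of all genes). None of the 7 passed in EBs with edgeR or DESeq2 on all libraries (1 at an unadjusted p below 0.05), where 6.8% of all genes did. In ESCs 4 fell without knockout ESC replicate 1 (25.9% of all genes called), and in EBs 1 fell without knockout ESC replicate 2 (17.1%). Bnip3l, the closest relative of Bnip3, fell from 144.4 and 159.2 CPM to 113.5 and 122.3 CPM (-0.37 ± 0.09, adjusted p = 0.0275), and Fundc1, another receptor, rose (0.67 ± 0.16, adjusted p = 0.0163). Both calls were lost without either control ESC library (Bnip3l 0.0874 and 0.260, Fundc1 0.0992 and 0.193). With the GC trend removed Bnip3l was also called lower in EBs (-0.26, adjusted p = 0.0400).

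P4ha1 and Vegfa, both known HIF targets, went the other way. P4ha1, the catalytic alpha subunit of collagen prolyl 4-hydroxylase (chromosome 10, 59323296 to 59373304, plus strand), read 113.2 and 116.0 CPM in control and 329.9 and 354.8 CPM in knockout ESCs. In EBs it stood at 119.5 and 105.4 CPM in control and 170.0 and 187.6 CPM in knockout. Both knockout groups were above both control groups, and the 2 control groups overlapped. Knockout ESCs were 2.99-fold higher (log2 change 1.58 ± 0.10, adjusted p = 8.41e-06), and knockout EBs 1.59-fold higher (0.67 ± 0.10, adjusted p = 0.00301). The ESC call held in all 14 alternative analyses (log2 change from 1.48 to 1.62), and the EB call in 14 of 15, with an adjusted p of 0.0548 without control EB replicate 2.

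Other genes of collagen processing rose as well. Of 10 other tested genes of collagen hydroxylation and assembly (11 were listed), 5 rose, none fell and 5 did not pass in knockout ESCs, with a median of 0.56, and 4 rose, none fell and 6 did not pass in knockout EBs, with a median of 0.43. Over all genes 8.3% rose in ESCs and 4.75% in EBs. Serpinh1, the collagen chaperone HSP47, rose from 143.1 and 154.2 CPM to 706.4 and 536.3 CPM in ESCs (2.06 ± 0.13, adjusted p = 8.75e-06) and from 144.1 and 157.5 CPM to 279.4 and 316.2 CPM in EBs (0.98 ± 0.13, adjusted p = 0.00147). P4ha2, the second alpha subunit, rose from 85.7 and 89.3 CPM to 303.1 and 295.1 CPM in ESCs (1.77 ± 0.09) and from 63.8 and 68.8 CPM to 94.4 and 101.1 CPM in EBs (0.56 ± 0.09, adjusted p = 0.00543). Plod2, a lysyl hydroxylase, rose in ESCs (1.04 ± 0.10, adjusted p = 0.000104) and did not pass in EBs (0.25 ± 0.10, adjusted p = 0.177). The EB call of Serpinh1 was lost without control replicate 1 (0.0642), and that of P4ha2 without control replicate 1 (0.102) or knockout replicate 2 (0.0563). The median of the 10 in ESCs was 0.51 without knockout ESC replicate 1 and 0.66 without replicate 2. More of the 10 passed in ESCs each time, and more of all genes did. In EBs the median was 0.49 without knockout EB replicate 1, where fewer of the 10, and fewer of all genes, passed. The rises stood beside those of the basement membrane collagen Col4a1, one of the endoderm markers, at 910.4 and 1006 CPM in control and 4549 and 2807 CPM in knockout ESCs. The part of endoderm-like cells in the level of P4ha1 was not tested. Markers of fibroblasts, another source of collagen enzymes, were low but also higher there: they summed to 30.3 and 25.4 CPM in knockout against 21.3 and 22.8 CPM in control ESCs, without overlap, and to 25.1 to 30.7 CPM in EBs, where the genotypes overlapped. Of the 10 markers 5 were tested, and 1 rose in knockout ESCs, Col1a2 (1.55 and 1.04 CPM in control, 4.30 and 2.33 CPM in knockout). Twist2 and S100a4 were at 0 in every library. The part of fibroblasts was not tested.

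Vegfa, the main growth factor for blood vessels (chromosome 17, 46016993 to 46032369, minus strand), stood at 54.1 and 57.3 CPM (control ESCs), 118.0 and 72.1 CPM (knockout ESCs), 38.1 and 30.0 CPM (control EBs) and 58.4 and 63.3 CPM (knockout EBs). The knockout libraries were above the controls in each state, but the 2 knockout ESC libraries differed by 0.71 on the log2 scale, against an SD of 0.41 over all genes of at least 5 CPM in that group. The log2 change was 0.77 ± 0.20 in ESCs (adjusted p = 0.0261) and 0.84 ± 0.20 in EBs (adjusted p = 0.0361). In ESCs it was 0.36 without knockout replicate 1 and 1.08 without knockout replicate 2, and the call was lost without either control library (adjusted p = 0.210 and 0.188). In EBs the call was lost without any 1 of the 4 EB libraries (0.110 to 0.238). From ESC to EB Vegfa fell by 0.71 ± 0.20 in control cells (adjusted p = 0.0359) and the value in knockout cells was -0.64 ± 0.20 (adjusted p = 0.0514), which ranged from -0.95 to -0.23 and passed in 6 of 13 alternatives, DESeq2 among them (0.00956). Of 9 other VEGF ligands and receptors, 1 rose and 1 fell in knockout ESCs (8.3% and 6.2% of all genes). None of the 9 passed in EBs with edgeR or DESeq2 (1 at an unadjusted p below 0.05), where 6.8% of all genes did. Without knockout ESC replicate 1, 2 rose and 3 fell in ESCs (25.9% of all genes called). The neuropilin co-receptor Nrp2 fell from 119.0 and 123.5 CPM to 40.7 and 44.0 CPM (-1.52 ± 0.16, adjusted p = 0.000158). Its relative Nrp1 rose at a low level, from 1.06 and 1.47 CPM to 3.06 and 6.77 CPM (1.93 ± 0.50, adjusted p = 0.0278), and its call was lost without either control ESC library or knockout replicate 2 (0.128 to 0.223).

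**Figure D3:**
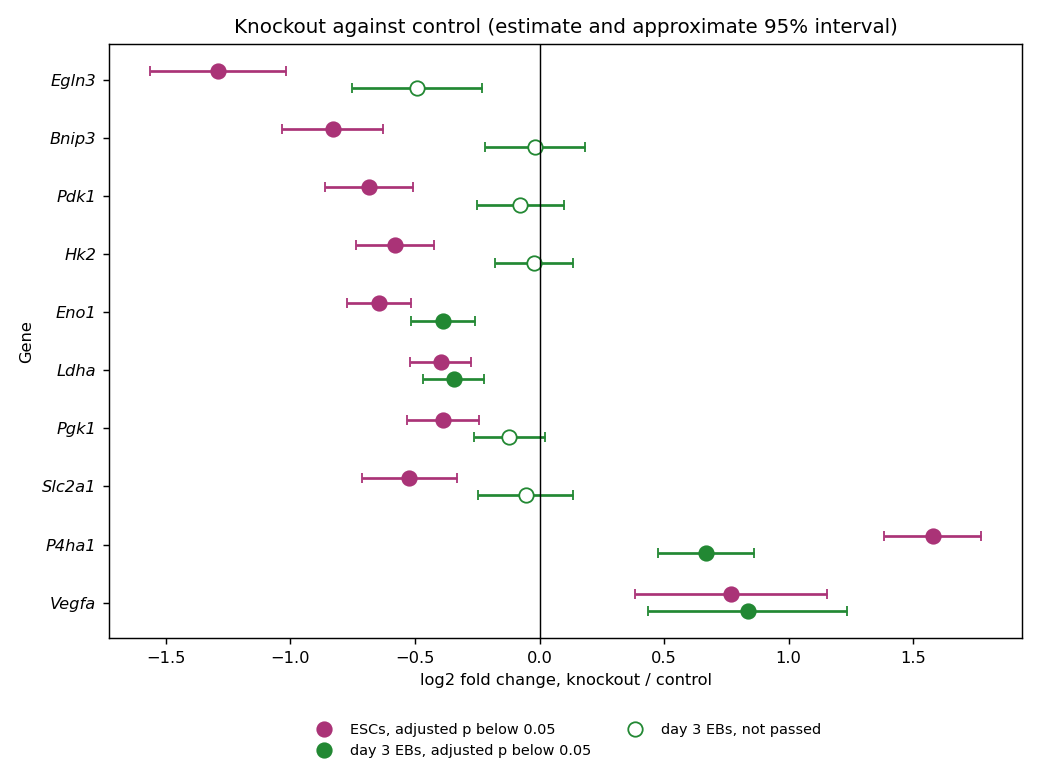
Log2 change of knockout against control for each gene (horizontal axis; genes on the vertical axis), in ESCs (purple) and day 3 EBs (green), with approximate 95% intervals of the estimate; filled points had an adjusted p below 0.05. All 10 ESC points are filled, and in EBs those of Eno1, Ldha, P4ha1 and Vegfa.

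The difference between the effect in EBs and that in ESCs was tested in the same model. It passed for 4 of the 10 genes, where 1.38% of all genes tested were called (0.742% higher and 0.642% lower). The decrease in ESCs was not matched in EBs for Bnip3 (difference 0.81 ± 0.15, adjusted p = 0.0288), Pdk1 (0.61 ± 0.13, adjusted p = 0.0474) and Hk2 (0.56 ± 0.11, adjusted p = 0.0437). The rise of P4ha1 was smaller in EBs (-0.91 ± 0.14, adjusted p = 0.0133). With the replicate block and with a mean of at least 1 CPM, Pdk1 (0.0714 and 0.0623) and Hk2 (0.0716 and 0.0587) did not pass, nor did Pdk1 with median-of-ratios factors (0.0552). For the other 6 genes the difference did not pass, with values from 0.05 ± 0.09 for Ldha (interval -0.12 to 0.23) to 0.80 ± 0.19 for Egln3. That of Egln3 passed in 6 of 16 alternatives, DESeq2 (0.0289) and the replicate block (0.0495) among them, and that of Slc2a1 in 4 of 16. These calls rest on few libraries. Without 1 of the control or knockout EB libraries or control ESC libraries, most or all of them were lost, as were most calls over all genes. Without either knockout ESC library more of the 10 passed, and more of all genes did. Over all alternatives the difference ran from 0.73 to 0.91 for Bnip3, 0.55 to 0.68 for Pdk1 and 0.48 to 0.63 for Hk2. That of P4ha1 ran from -0.99 to -0.81.

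In control cells, differentiation to day 3 EBs changed 4 of the 10 genes: Eno1 and Ldha rose and Hk2 and Vegfa fell, where 18.2% of all genes were called (8.6% higher and 9.63% lower). Without overlap between libraries, 6 of the 10 were higher and 2 lower (31.8% and 33.1% of all genes). The median was 0.13, beside -0.01 over all genes. With the GC trend removed 5 rose and 2 fell (27% of all genes called), and on plain library totals 1 rose and 2 fell (18.5%). The calls of Eno1 and Vegfa were lost without any 1 of the 4 control libraries (adjusted p from 0.120 to 0.180 for Eno1 and from 0.103 to 0.243 for Vegfa), and that of Eno1 also without knockout EB replicate 1 (0.0593). In knockout cells 9 of the 10 changed, 7 rising and 2 falling, where 15.3% of all genes were called (8.23% higher and 7.11% lower). Without overlap, 7 were higher and 3 lower (28.9% and 29.2% of all genes). Egln3, Bnip3, Pdk1, Slc2a1, Eno1, Ldha and Pgk1 rose by 0.44 to 1.05 on the log2 scale, P4ha1 fell by 0.94 ± 0.10 and Hk2 by 0.35 ± 0.08. The Hk2 call in knockout cells was lost without either knockout EB library (0.171 and 0.104). The differentiation comparisons share their ESC and EB libraries with the knockout comparisons, so the low knockout ESC level of a gene enters both its knockout effect in ESCs and its rise in knockout cells.

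**Figure D4:**
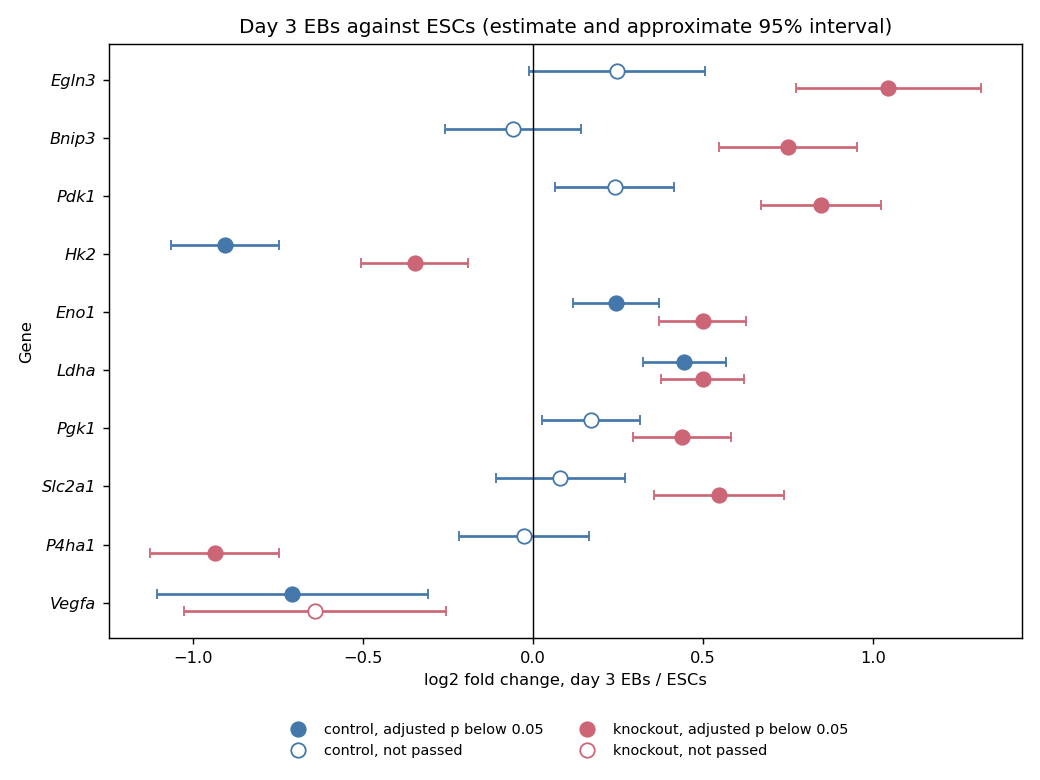
Log2 change of day 3 EBs against ESCs for each gene (horizontal axis; genes on the vertical axis), in control (blue) and knockout cells (red), with approximate 95% intervals; filled points had an adjusted p below 0.05. In control cells 4 points are filled and in knockout cells 9, all but Vegfa.

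A wider list of 33 other HIF target genes gave calls in both directions in ESCs. Of these 33, 9 are also in the lists above, among them 2 of the rises and 3 of the falls in ESCs and 2 of the rises in EBs. In knockout ESCs 6 rose, 8 fell and 19 did not pass, with a median of 0.02 (8.3% of all genes rose and 6.2% fell). In knockout EBs 5 rose, none fell and 28 did not pass, with a median of 0.07 (4.75% and 2.04%). Cited2, a HIF target whose product competes for the HIF coactivators, rose from 51.6 and 55.5 CPM to 147.3 and 117.3 CPM in ESCs (1.30 ± 0.12) and from 70.7 and 77.6 CPM to 115.4 and 121.8 CPM in EBs (0.68 ± 0.12, adjusted p = 0.00797). Its EB call was lost without either control or knockout replicate 2 (0.0596 to 0.153). In EBs 3 of the 33 rose without knockout EB replicate 1 (2.25% of all genes called), and 9 rose and 5 fell without either knockout ESC library (17.1% each time).

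Across the 8 libraries, the log2 levels of the members fell into 3 kinds, given here as a description because the points share their libraries and 4 group means. Egln3, Bnip3, Pdk1, Eno1, Ldha, Pgk1 and Slc2a1 went together, with Pearson r between pairs of 0.803 to 0.988, and the highest was between Pdk1 and Pgk1. P4ha1 and Vegfa ran against all 7 (r from -0.963 to -0.635) and with each other (0.814). Hk2 stood apart, with r from -0.395 to 0.256 to the others. Among 10636 named genes of at least 5 CPM, the one most like Egln3 was Scamp5 (r = 0.996), that most like Eno1 was Firre (0.996), and that most like Ldha was Thrap3 (0.9997). The nearest to P4ha1 was Tuft1 (0.996), to Hk2 Rbm4b (0.995), to Pdk1 Usp28 (0.992), to Pgk1 Nsmaf (0.992), to Bnip3 Fbxo22 (0.988), to Slc2a1 Zfp740 (0.986) and to Vegfa Ap1s1 (0.986).

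Per length, Ldha and Pgk1 were the most abundant of the 10 in control ESCs, at 461 and 460.2 RPKM, with replicates that overlapped. They were followed by Eno1 (338 RPKM), Slc2a1 (186), Hk2 (66.0), Bnip3 (45.1), Pdk1 (36.7), P4ha1 (27.9), Egln3 (23.8) and Vegfa (13.0). In knockout ESCs P4ha1 stood at 83.2 RPKM, above Hk2 (44.1), Bnip3 (25.4) and Pdk1 (22.8), and Egln3 was lowest at 9.73.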

How the data were processed

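Poly(A) RNA was sequenced in 8 libraries of R1 cells, 2 in each of 4 groups, and each library was placed in its group by its title. Per the file headers, the deposited values are raw read counts per gene in whole numbers. The submitters' processing notes list HISAT2, featureCounts, DESeq2 and mm10 and give no versions. How strand and multi-mapping reads were handled was not stated, so reads of overlapping antisense genes, or of copies such as Eno1b, cannot be told apart.

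The members and lists were chosen with earlier results of these data known. Of 55401 genes, 17125 passed edgeR's filterByExpr. With edgeR 4.0.16 (R 4.3.3, limma 3.58.1), TMM factors were computed and a quasi-likelihood model with a mean for each group was fitted to all 8 libraries (biological coefficient of variation 0.132). Benjamini-Hochberg adjustment ran over the 17125 genes, and a gene was called below 0.05. SEs were taken from the F statistic, and 95% intervals are a normal approximation, which is likely too narrow. CPM use the library totals over the genes tested times the TMM factors. The raw totals over all genes were 12119763 to 16228426 counts. RPKM divide CPM by the exon length given with the counts. Likeness between genes is Pearson r of log2 CPM (prior count 2). Promoter letters are RefSeq's, and gene symbols and GC content come from GENCODE M21.

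Besides the 10 genes, the text names up to 2 called genes with the smallest adjusted p per list in each knockout comparison and in control differentiation, and Hif1a, Epas1, Egln1, Egln2, Slc2a3, P4ha2, Plod2, Bnip3l and Zfp462 whatever their result. Isozymes named for their level per length, and Col4a1, were chosen after their values were seen. Alternatives were other size factors (median of ratios, plain totals), the filter (none, or a mean CPM of 1), a replicate block, a GC correction (spline with 5 degrees of freedom), a fold of at least 1.5, a fit to the compared groups alone, DESeq2 1.42.0 and each library left out. Chosen after seeing the data were the sum of Eno1 and Eno1b and the removal of either knockout ESC library or of knockout EB replicate 1 from comparisons outside its own group and from the lists. The fit was also run on simulated data, whose result is not given here and lends no support to the calls.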

Additional observations from a re-analysis of the deposited data

Results flagged for a closer look

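The knockout effect differed between EBs and ESCs by the test of the difference itself (edgeR) for 4 of the 10 genes. The difference, EB effect minus ESC effect on the log2 scale, was 0.81 for Bnip3 (-0.83 in ESCs and -0.02 in EBs), 0.61 for Pdk1 (-0.69 and -0.08), 0.56 for Hk2 (-0.58 and -0.02) and -0.91 for P4ha1 (1.58 and 0.67). Among the other genes the text names, 5 differed in the same test. Pfkp gave 0.82 (-0.27 in ESCs and 0.55 in EBs, adjusted p = 0.0129) and Nrp2 gave 1.85 (-1.52 and 0.33, adjusted p = 0.00917). The collagen-processing genes P4ha2, Serpinh1 and Plod2 gave -1.21, -1.08 and -0.80, from 1.77, 2.06 and 1.04 in ESCs to 0.56, 0.98 and 0.25 in EBs. Without single libraries these calls were lost: those of Pfkp (adjusted p from 0.0767 to 0.161), Nrp2 (0.0710 to 0.133) and P4ha2 (0.0710 to 0.105) without either ESC control or EB control replicate 2, that of Pfkp also without knockout EB replicate 1, that of Serpinh1 without any control library or knockout EB replicate 1 (0.123 to 0.209), and that of Plod2 without any control or EB library (0.0769 to 0.252). Over all genes tested, 1.38% were called in this test.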

How the results depend on the processing

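The 10 genes gave 745 values under the alternatives, of which 612 kept their direction and side of the threshold, 80 lost a call, 39 gained one and 14 changed sign. The counts of genes called moved as follows, and the cause was not tested unless the alternative itself leaves out libraries or small changes. Percentages are the share of all genes called in either direction under the same setting. On plain library totals 1 gene was higher in control differentiation (18.5%). With no low-count filter 5 were higher in the difference of the knockout effect (2.2%). With a mean of at least 1 CPM there was 1 higher in knockout EBs (7.04%) and 1 lower in control differentiation (19.6%). In the difference 1 was then higher (1.38%). With the GC trend removed 5 were lower in knockout EBs (20.6%), 5 higher in control differentiation (27%) and 5 higher in the difference (4.19%). With a fold change of at least 1.5 there were 4 lower in knockout ESCs (10.6%) and 0 lower in knockout EBs (5.37%). At that fold 0 were higher in control differentiation (12.8%), and 3 were higher and 1 lower in knockout differentiation (10.5%). With only the groups compared there was 1 higher in knockout ESCs (8.4%) and 5 higher in control differentiation (34.6%). In knockout differentiation 4 were then higher and 1 lower (5.02%). With 1 library left out the ranges were 1 to 2 higher in knockout ESCs (6 to 8 lower), 0 to 2 higher and 0 to 3 lower in knockout EBs, 1 to 4 higher and 1 to 2 lower in control differentiation, 1 to 3 lower in knockout differentiation (7 higher each time), and 0 to 7 higher and 0 to 1 lower in the difference. A lone remaining library is then assumed to vary like the other groups. DESeq2 moved no count by over 1.5 times.

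Values that changed sign had missed the threshold with all libraries. On library totals the knockout EB effects of Bnip3, Hk2 and Egln2 were 0.0095, 0.0059 and 0.0244. With the GC trend removed Slc2a3 and Egln2 gave -0.0658 and 0.0704 in knockout ESCs, Epas1, Egln1 and Egln2 gave -0.0195, -0.0365 and 0.0259 in knockout EBs, Bnip3 and P4ha1 gave 0.0755 and 0.108 in control differentiation, and Ldha and Vegfa gave -0.0227 and -0.0071 in the difference. With only the groups compared Egln2 gave 0.005 in knockout EBs. With 1 library left out, knockout ESC effects ran from -0.0899 to 0.2237 for Hif1a, -0.2266 to 0.7149 for Egln1 and -0.4617 to 0.2789 for Egln2. Knockout EB effects ran from -0.1082 to 0.0752 for Bnip3, -0.0422 to 0.003 for Hk2, -0.116 to 0.0058 for Slc2a1, -0.0526 to 0.0979 for Egln1 and -0.1222 to 0.1254 for Egln2. Control differentiation ran from -0.1566 to 0.0263 for Bnip3 and -0.1201 to 0.0554 for P4ha1, and the difference for Vegfa from -0.2448 to 0.4784.

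The deviations of libraries with the same replicate number in 2 groups were nearly uncorrelated across genes (r from -0.089 to 0.023). Such a correlation cannot show if samples were paired, and the labels do not say. With the replicate block 8 genes were lower and 2 higher in knockout ESCs, where 13.3% of all genes were called. In knockout EBs 2 were higher and 3 lower, where 5.65% of all genes were called. In the difference, Pdk1 and Hk2 missed the threshold with the block (adjusted p = 0.0714 and 0.0716) and Egln3 passed it (0.0495). That made 2 higher and 1 lower, where 1.01% of all genes were called. Egln2 in knockout EBs was 0.0069. With 2 libraries a group, the depth of 12119763 to 16228426 counts is less of a limit than the number of samples for genes at these levels.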

Other observations

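Control differentiation changed several genes of the same pathways that the account above leaves out. Nrp2 fell from 119.0 and 123.5 CPM in control ESCs to 11.9 and 7.69 CPM in control EBs (log2 change -3.62 ± 0.18, adjusted p = 1.27e-06, edgeR). Ak4, a mitochondrial adenylate kinase and HIF target, fell (-1.29 ± 0.10, adjusted p = 1.85e-05), as did Slc2a3 (-0.51 ± 0.07, adjusted p = 0.000708). Slc16a3, the lactate exporter MCT4, rose from 208.4 and 219.7 CPM to 445.6 and 414.7 CPM (1.01 ± 0.17, adjusted p = 0.00296). Pdha1, the catalytic subunit of pyruvate dehydrogenase, fell (-0.67 ± 0.10, adjusted p = 0.00163), and Pdk4, one of the kinases of that complex, fell (-1.03 ± 0.25, adjusted p = 0.0184). Of the collagen-processing genes P4hb rose (0.47 ± 0.07) and Plod1 fell (-0.90 ± 0.16, adjusted p = 0.00344). Phb2, a mitophagy receptor of the inner membrane, rose (0.45 ± 0.10, adjusted p = 0.0140), and Arnt fell (-0.32 ± 0.09, adjusted p = 0.0310). The calls of Pdk4 (0.0506 to 0.134), Phb2 (0.0913 to 0.149) and Arnt (0.111 to 0.201) were lost without any 1 of the 4 control libraries, that of Arnt also without knockout EB replicate 1 (0.0578) and with the GC trend removed (0.111), that of Plod1 without EB control replicate 1 (0.0563), and that of Slc16a3 without either ESC control or EB control replicate 1 (0.0528 to 0.0622).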
